A study of Rattus norvegicus with 15 samples.

Results

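The 10 genes described here are markers of Kupffer cells and other macrophages, measured in primary rat hepatocytes cultured in microfluidic biochips. They are Cd163, Cd68, Marco, Clec4f, Cd5l, C1qa, C1qb, C1qc, Csf1r and Vsig4. They were chosen by gene symbol in the platform annotation, and each is represented by 1 probe set. They are 10 of 14506 named genes on the Affymetrix rat gene array. Each of 15 biochips was measured on 1 array.

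All biochips were seeded with freshly isolated rat hepatocytes on collagen. The cells attached for 24 h in medium with serum and insulin and were then perfused in medium with insulin, transferrin and selenium. Flutamide, a nonsteroidal antiandrogen, was added to the perfused medium at 10 µM in 6 biochips and at 100 µM in 4, and 5 biochips received the solvent DMSO, each for 24 h. The strain, sex, age and number of the rats are not given in the labels. The biochips are numbered 10 to 16 (number run 1) and 20 to 27 (number run 2) in the sample titles, and both runs hold all 3 groups. Run 1 holds DMSO biochips 10 and 11, 10 µM biochips 12, 13 and 14, and 100 µM biochips 15 and 16. Run 2 holds DMSO biochips 20, 21 and 22, 10 µM biochips 23, 24 and 25, and 100 µM biochips 26 and 27. The labels do not say what the runs stand for, and they leave unsaid whether any biochips came from different animals or isolations. The p-values therefore reflect the spread among these biochips, which may be technical.

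Kupffer cells are the resident macrophages of the liver and lie inside the sinusoids, where they take up particles, microbes and aged blood cells. They depend on signalling through the receptor Csf1r, carry scavenger and complement receptors on their surface, and make the subunits of C1q, which starts the classical complement pathway. Cd68 is a glycoprotein of the lysosome and endosome membrane that is abundant in macrophages and is used as a general macrophage marker. Isolated hepatocytes commonly carry some non-parenchymal cells.

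The labels name the cells as hepatocytes, and the arrays carried high signal of several hepatocyte genes. Another hepatocyte gene, Cps1, was less bright, with a median log2 value of 7.97, and is described with the cell type lists below. Albumin (Alb) lay between 12.66 and 13.01 on the log2 scale over the 15 arrays, transthyretin (Ttr) between 11.70 and 12.71 and apolipoprotein A1 (Apoa1) between 11.12 and 12.02. Median log2 values of the arrays were 5.38 to 5.51. The T cell gene Cd3e lay between 3.73 and 4.17 and the B cell gene Ms4a1 between 3.61 and 3.99. The 10 µM biochip 23 stood apart from the rest, with an array quality weight of 0.205 in limma, the lowest of the 15. The dose comparisons, the comparison of the runs and the correlations are therefore also given without it. No detection value was used, so low values are described by level alone. In a bulk culture, fewer cells of a type and less RNA per cell cannot be told apart.

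Promoter sequence is shown for 3 members because Marco and C1qb were the pair that moved together most closely between biochips and Cd68 was the member least correlated with the others over the 15 biochips. The sequences are the 250 bases before the RefSeq start of each gene in the rat assembly GRCr8, read 5′ to 3′ on the gene's strand. The Cd68 stretch is chr10:54882442-54882691, the Marco stretch chr13:34201256-34201505 and the C1qb stretch chr5:154407828-154408077, all on the minus strand. Capitals mark the letters GAGGAA or TTCCTC, the core bound by PU.1, a transcription factor of the macrophage lineage, and TGANTCA, the site of AP-1.
Cd68: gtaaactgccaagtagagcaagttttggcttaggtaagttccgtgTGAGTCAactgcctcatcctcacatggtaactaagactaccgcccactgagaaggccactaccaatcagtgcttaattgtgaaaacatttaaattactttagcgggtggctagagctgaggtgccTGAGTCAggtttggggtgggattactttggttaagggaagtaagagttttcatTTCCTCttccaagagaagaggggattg
Marco: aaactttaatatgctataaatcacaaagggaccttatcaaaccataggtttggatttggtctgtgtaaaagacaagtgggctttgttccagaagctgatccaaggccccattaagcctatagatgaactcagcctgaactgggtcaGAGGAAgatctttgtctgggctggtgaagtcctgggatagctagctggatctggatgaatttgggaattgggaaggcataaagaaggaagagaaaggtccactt
C1qb: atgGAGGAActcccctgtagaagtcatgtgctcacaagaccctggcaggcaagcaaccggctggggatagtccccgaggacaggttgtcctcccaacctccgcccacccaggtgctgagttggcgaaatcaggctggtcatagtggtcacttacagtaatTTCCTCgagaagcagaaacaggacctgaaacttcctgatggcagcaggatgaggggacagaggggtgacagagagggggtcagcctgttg

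Of the 9 members with a promoter in the table used, 5 held the PU.1 core on either strand, namely C1qb, Cd5l, Cd68, Csf1r and Marco. The same letters were found in 23.2% of 27457 rat promoters of that length. In Cd68 the core stood 27 bases before the start, in Marco 104 bases before it, and in C1qb it occurred at 247 and at 90 bases. The AP-1 letters occurred in Cd68 alone of these 9, at 205 and 80 bases before the start, against 6.36% of all promoters. The E-box CACGTG, which reads the same on both strands and is the core of the site for TFEB, a regulator of lysosomal genes, was in 0 of the 9 and in 5.79% of all promoters. None of these motifs overlap in the sequences shown. The matches describe letters in this window and are not shown to be bound.

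The complement receptor Vsig4 and the scavenger receptor Cd163 had the widest ranges of the members over the 15 biochips, 5.02 and 3.73 on the log2 scale, ahead of Cd68 with 3.32. By SD over the 15 biochips the order was Vsig4 (1.34), Cd68 (1.15) and Cd163 (1.04). Cd163, the receptor for haptoglobin and haemoglobin complexes, had log2 values of 6.62 and 5.68 in DMSO biochips 10 and 11, and 7.06, 8.00 and 5.87 in DMSO biochips 20, 21 and 22. In the 6 biochips at 10 µM, Cd163 ranged from 4.98 to 8.51 with a median of 5.72. At 100 µM, Cd163 values were 6.24, 5.84, 5.39 and 4.78 in biochips 15, 16, 26 and 27. The groups overlapped, and biochip 23 (8.51) and DMSO biochip 21 (8.00) were the highest of all.

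Vsig4, a receptor for complement C3 fragments on Kupffer cells, had DMSO log2 values of 7.11 and 5.80 in run 1 and 7.26, 8.60 and 5.67 in run 2. At 10 µM, Vsig4 ranged from 4.91 to 8.95 with a median of 5.95. At 100 µM it lay at 6.26, 6.57, 5.97 and 3.93. Vsig4 had the widest spread of the members, and its extremes were the 100 µM biochip 27 at the bottom and biochip 23 at the top.

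Marco, a scavenger receptor that binds bacteria and particles, lay at 6.06 and 5.41 in the DMSO biochips of run 1 and at 6.02, 6.83 and 5.61 in those of run 2. Marco ranged from 5.10 to 7.51 at 10 µM (median 5.50) and was 6.15, 5.63, 5.15 and 5.57 at 100 µM. The DMSO and 10 µM values overlapped for every member (0.634% of genes showed none), and the Marco values of all 3 groups did. The 10 µM maximum was biochip 23 and the DMSO maximum biochip 21, as for Cd163 and Vsig4.

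The 3 chains of C1q are secreted together as 1 complex. C1qa had DMSO log2 values of 6.18, 6.01, 6.34, 6.71 and 6.08, and all 4 biochips at 100 µM lay below them, at 5.86, 5.89, 5.62 and 5.66. At 10 µM, C1qa ranged from 5.49 to 7.65 with a median of 5.76. C1qa was the single member of 10 whose DMSO and 100 µM values did not overlap, and 2.06% of all genes tested showed no overlap between those groups in either direction. The fitted C1qa difference of 100 µM minus DMSO was -0.47 (SE 0.33, limma adjusted p = 0.814).

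C1qb lay at 6.77, 6.38, 6.54, 6.90 and 6.23 in the DMSO biochips and at 6.83, 6.38, 6.04 and 6.28 at 100 µM, and ranged from 5.94 to 7.29 at 10 µM. C1qc lay at 6.61, 6.23, 6.66, 7.91 and 5.76 in DMSO and at 7.02, 6.37, 6.30 and 5.37 at 100 µM, and ranged from 5.60 to 8.31 at 10 µM. For both genes the 3 groups overlapped.

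Cd5l, a secreted scavenger protein of macrophages, lay at 6.42, 5.58, 5.82, 6.36 and 5.29 in the DMSO biochips and ranged from 5.05 to 6.46 at 10 µM. Its highest value of all was at 100 µM, 6.77 in biochip 15, whereas biochips 16, 26 and 27 were at 5.49, 4.99 and 5.19. The lectin Clec4f, which marks rodent Kupffer cells, spanned 4.76 to 5.66 in DMSO, 5.12 to 5.98 at 10 µM and 4.85 to 5.35 at 100 µM. Csf1r, the receptor for the growth factor Csf1, spanned 4.94 to 5.80 in DMSO, 5.06 to 5.87 at 10 µM and 4.98 to 5.28 at 100 µM. Cd5l, Clec4f and Csf1r stayed within 2 log2 units over all 15 biochips, and their groups overlapped. Their means over the 15 biochips, 5.70, 5.29 and 5.22, lay below the median gene mean of 5.79, so they were dim.

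Cd68 had another pattern. The 3 DMSO biochips of run 2 lay at 7.18, 7.28 and 7.52, while the 2 DMSO biochips of run 1 lay at 10.15 and 9.87. At 10 µM, Cd68 was 10.39, 9.96 and 9.60 in run 1 and 9.85, 8.95 and 9.49 in run 2. At 100 µM it was 10.50 and 10.14 in run 1 and 8.31 and 9.95 in run 2. All 3 DMSO biochips of run 2 thus lay below the lowest of the other 12, biochip 26 at 8.31. The mean of those 3 was 7.33 ± 0.17 (SD, n = 3) and that of the other 12 was 9.76 ± 0.62 (SD, n = 12), a difference of 2.44 on the log2 scale or 5.42-fold.

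**Figure D1:**
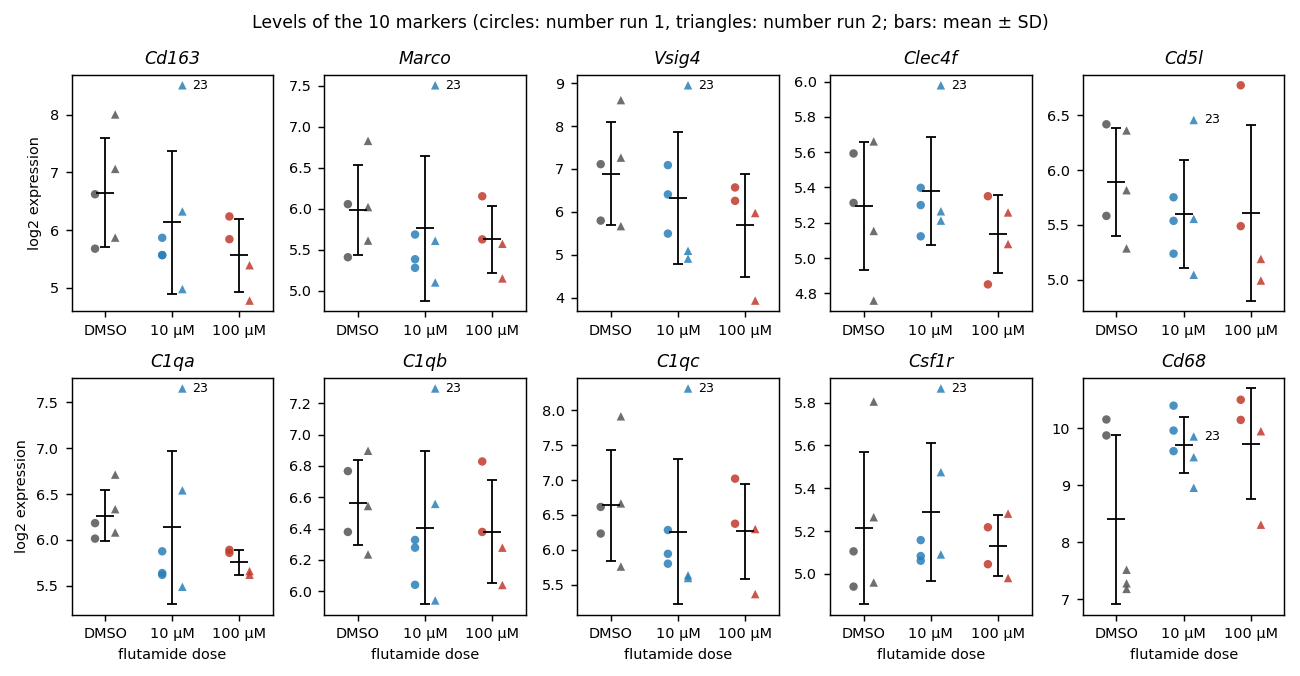
Log2 expression of each marker (y axis) by flutamide dose (x axis), with 1 point per biochip, circles for number run 1, triangles for number run 2, and the group mean ± SD as bars. Biochip 23 is the top point at 10 µM for all markers except Cd68, and the DMSO biochips of Cd68 split into 2 at 9.87 to 10.15 and 3 at 7.18 to 7.52.

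The first question is whether flutamide changed these markers. In the fit of all 15 arrays with dose and run, 0 of the 10 members were called at 10 µM or at 100 µM against DMSO (limma, p under 0.05 after Benjamini-Hochberg adjustment across the whole table), and 0% of all genes tested were called in either comparison. Both comparisons share the DMSO biochips. At an unadjusted p under 0.05, 1 of 10 members, Cd68, was past the threshold in each, against 7.65% of all genes at 10 µM and 6.85% at 100 µM. The members' median log2 difference was -0.18 at 10 µM, with 3 members higher and 7 lower, and -0.32 at 100 µM, with 1 higher and 9 lower. The median over all genes was -0.00 at 10 µM and 0.02 at 100 µM. The members' median at 100 µM rested on few biochips: it was -0.12 without DMSO biochip 21 and -0.57, -0.16 and -0.17 without the 100 µM biochips 15, 26 and 27. Within run 1 alone it was 0.07, with 6 members higher and 4 lower, and within run 2 alone it was -0.73, with 1 higher and 9 lower. At 10 µM the median was -0.03 without biochip 25, -0.11 without biochip 12 and -0.11, -0.27 and -0.28 without DMSO biochips 10, 11 and 22. Within run 1 alone it was -0.32 and within run 2 alone -0.02.

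Among the receptors, Vsig4 differed from DMSO by -0.58 (SE 0.76, limma adjusted p = 0.926) at 10 µM and by -1.22 (SE 0.84, adjusted p = 0.808) at 100 µM. Cd163 differed by -0.47 (SE 0.56) at 10 µM and by -1.05 (SE 0.62) at 100 µM, with limma adjusted p = 0.917 and 0.783. Marco differed by -0.20 (SE 0.38) and -0.34, C1qc by -0.37 (SE 0.50) and -0.36, Cd5l by -0.32 (SE 0.32) and -0.31, and C1qb by -0.15 (SE 0.22) and -0.18. Each of these differences was under 2 times its SE. Clec4f and Csf1r differed by 0.09 and 0.10 at 10 µM and by -0.16 and -0.06 at 100 µM. Between the doses, 0 of 10 members passed even an unadjusted p of 0.05, against 4.98% of all genes.

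Cd68 had the largest positive difference of the members in the fit, 1.17 (SE 0.38, limma adjusted p = 0.447) at 10 µM and 1.18 (SE 0.42, adjusted p = 0.665) at 100 µM, neither of which was called. Within run 1 alone, the Cd68 difference of 10 µM minus DMSO was -0.03 (SE 0.24, limma adjusted p = 0.992) and that of 100 µM was 0.31 (SE 0.26, adjusted p = 0.861). Within run 2 alone the same differences were 2.11 (SE 0.40, adjusted p = 0.133) and 1.80 (SE 0.45, adjusted p = 0.510). Fitted without the 3 DMSO biochips of run 2, they were 0.10 and 0.12. Within run 2, 0.0483% and 0.00689% of all genes were called in these comparisons, and 0 of 10 members. All 3 DMSO values of Cd68 in run 2 lay below all 5 flutamide values of that run, as did those of 3.81% of genes. The flutamide biochips of run 2, at 8.31 to 9.95, reached the level of the run 1 DMSO biochips, at 9.87 and 10.15, in 1 of 5 cases.

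The test of that contrast between the runs did not pass over all genes. The 10 µM effect on Cd68 was 2.14 larger in run 2 than in run 1 (SE 0.54, limma adjusted p = 0.241), and the 100 µM effect 1.49 larger (SE 0.59, adjusted p = 0.792). Of all genes, 0.0414% were called for the first difference and 0.00689% for the second, and 0 of the 10 members for either. At an unadjusted p under 0.05, Cd68 was the 1 member past the threshold in each, against 10.2% of all genes for 10 µM and 6.08% for 100 µM.

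**Figure D2:**
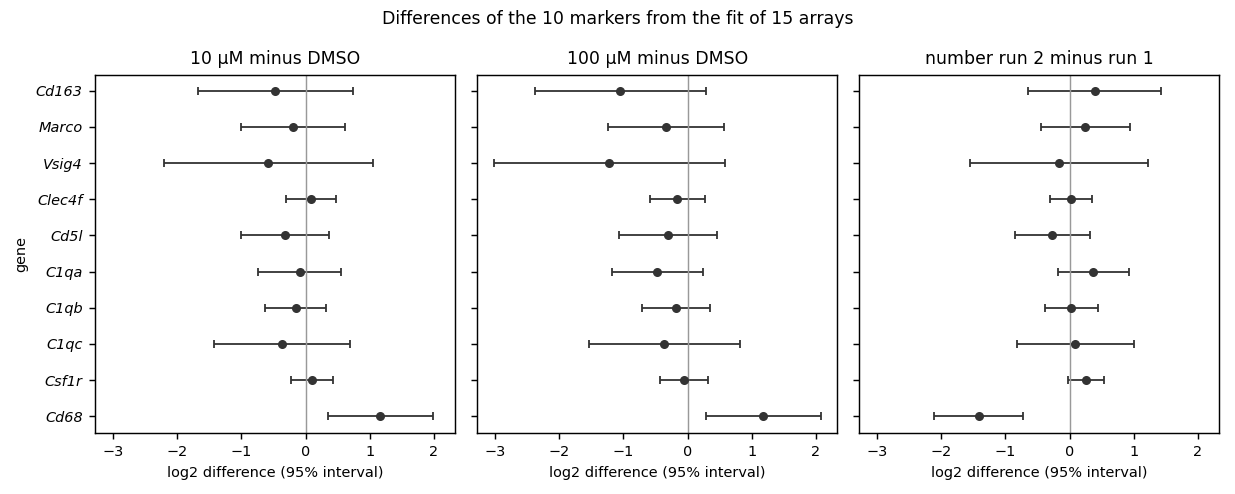
Fitted log2 differences (x axis) of the 10 markers (y axis) with 95% intervals, for 10 µM minus DMSO, 100 µM minus DMSO and number run 2 minus run 1. Intervals of all markers but Cd68 include 0 in every panel, and Cd68 lies at 1.17, 1.18 and -1.42.

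Between the runs, Cd68 was lower in run 2 by a fitted difference of -1.42 (SE 0.32, limma adjusted p = 0.0708), and the 95% intervals of the other 9 members included 0. In this comparison 0 of 10 members and 0.545% of all genes were called. At an unadjusted p under 0.05 the counts were 1 of 10 members and 11% of all genes. This Cd68 value lay near the threshold. It was called without biochip 23 (-1.57, limma adjusted p = 0.0378, with 0.889% of all genes called). It was also called without the 100 µM biochip 27 (-1.60, adjusted p = 0.0463, with 61 of 14506 genes called). It was not called without the 3 DMSO biochips of run 2 (-0.81, adjusted p = 0.372). The 7 Cd68 values of run 1 lay between 9.60 and 10.50, and the 8 of run 2 between 7.18 and 9.95.

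Few genes split the DMSO biochips of run 2 from the rest as Cd68 did. Those 3 biochips lay below all other 12 for 0.938% of genes, and for 1 of the 10 members. In 4 genes (0.0276%) the gap between the highest of the 3 and the lowest of the other 12 reached 0.5 on the log2 scale. Cd68 had the second widest gap of all, 0.79, after Aknad1, a gene of the AKNA domain family, with 2.02, and ahead of Spink1l (0.62) and Lrif1 (0.52). Aknad1 was 7.02, 7.30 and 6.90 in DMSO biochips 20, 21 and 22 and 9.78 and 9.82 in the DMSO biochips of run 1. These genes were singled out after their values were seen.

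In the same comparison of the runs, 4 genes of the other lists were called. Cd63, like Cd68 a membrane protein of lysosomes and endosomes, was the 1 called of 26 lysosomal genes, lower in run 2 by a difference of -0.33 (SE 0.06, limma adjusted p = 0.0347), and 20 of the 26 lay lower there. The chemokine Cxcl10 was the 1 called of 19 cytokines and chemokines, higher by 2.13 (SE 0.37, adjusted p = 0.0202). The protease inhibitor Timp1, in the stellate cell list, was lower by a difference of -1.34 (adjusted p = 0.0165), and the globin gene Hbb-b1, in the red blood cell list, was higher by 2.03 (adjusted p = 0.0389). Of the macrophage receptor and identity genes 19 of 24 were higher in run 2 with 0 called, and of the endothelial genes 11 of 11 with 0 called.

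The second question is how the markers moved together from biochip to biochip. Biochip 23 had the highest value of all 15 arrays in 8 of the 10 members, all but Cd5l and Cd68, whereas it was the highest in 18.8% of all genes. DMSO biochip 21 was second in the same 8 members. Against the mean of the other 5 biochips at 10 µM, biochip 23 was 8.88-fold higher for Vsig4, 7.21-fold for Cd163, 5.50-fold for C1qc, 4.27-fold for Marco and 3.53-fold for C1qa. The ratio was 2.09-fold for C1qb, 2.04-fold for Cd5l, 1.65-fold for Clec4f, 1.62-fold for Csf1r and 1.13-fold for Cd68. The members thus differed in how far biochip 23 stood out, from Vsig4, with the largest ratio, to Cd68, which lay within the range of the other arrays at that dose.

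**Figure D3:**
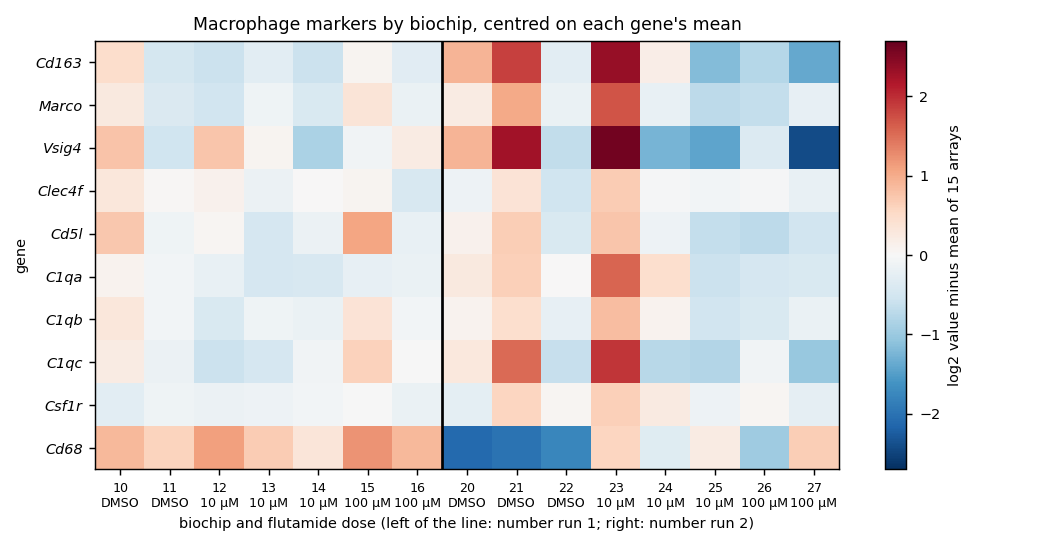
Log2 value minus the gene's mean over 15 arrays (colour scale) for each marker (y axis) and biochip (x axis, with dose; the line separates number run 1 from run 2). Columns 21 and 23 are red for the 9 markers other than Cd68, and the Cd68 line is blue in DMSO biochips 20, 21 and 22.

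The spread left after dose and run was large. The residual SD on the log2 scale was 1.40 for Vsig4, 1.04 for Cd163, 0.92 for C1qc, 0.70 for Marco and 0.70 for Cd68, against a median of 0.19 over all genes. Vsig4 varied more than 99.99% of genes, Cd163 more than 99.9% and C1qc more than 99.8%. Csf1r, the least variable member at 0.28, still exceeded 73.5% of genes. Without biochip 23 the residual SD was 1.10 for Vsig4, 0.76 for Cd163, 0.63 for C1qc and 0.44 for Marco, with a median over all genes of 0.17.

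The 9 members other than Cd68 varied together between biochips. Of their 36 pairs, 36 had a positive Pearson correlation over the 15 arrays, with a median r of 0.73 (range 0.39 to 0.94) and a median Spearman rho of 0.67. After Benjamini-Hochberg adjustment over all 45 pairs of members, 35 of the 36 passed at 0.05 by r and 20 by rho (two-sided permutation tests, 100000 resamples). Pairs drawn from all genes had a median r of 0.00, with the middle 90% between -0.52 and 0.54. Without biochip 23 the 36 correlations were still positive, with a median r of 0.59 (range 0.21 to 0.91), and 16 passed by r and 16 by rho.

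The closest pair was Marco and C1qb, a surface receptor and a secreted chain, with r = 0.94 and rho = 0.90 (n = 15, permutation p = 1e-05 for each, the smallest the resamples can give, and adjusted p = 0.00018 and 0.00045). Without biochip 23, r was 0.91 and rho 0.87 (permutation p = 1e-05 and 7e-05). Without biochips 21 and 23, the 2 arrays farthest from the Marco median, r was 0.92, so this relation did not rest on them.

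Cd163 and Marco correlated at r = 0.93 and rho = 0.88 (n = 15, permutation p = 1e-05 and 9e-05, adjusted p = 0.00018 and 0.00135). Their r was 0.88 without biochip 23 and 0.77 without biochips 21 and 23. C1qc and Vsig4 correlated at r = 0.87 and rho = 0.83 (permutation p = 3e-05 and 0.00025, adjusted p = 0.000225 and 0.0021), with r of 0.80 and 0.67 after the same omissions.

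Among the 3 chains of C1q, C1qa and C1qb correlated at r = 0.84, C1qb and C1qc at 0.84, and C1qa and C1qc at 0.75, with rho of 0.75, 0.72 and 0.50 (permutation tests, adjusted p = 0.0102, 0.0109 and 0.112 by rho). Without biochip 23 these were 0.71, 0.74 and 0.52, and without biochips 21 and 23 they were 0.60, 0.64 and 0.18. The C1qa and C1qc relation therefore rested on those 2 arrays.

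The correlations of Csf1r depended most on biochips 21 and 23 among those printed here. Its correlation with Cd163 was 0.72 over 15 arrays and -0.01 without biochips 21 and 23, and with Vsig4 it was 0.54 and -0.32. The rho of Csf1r with Vsig4 was 0.025 over 15 arrays (permutation test, adjusted p = 0.954). Over all 36 pairs, leaving out biochips 21 and 23 gave a median r of 0.42 (range -0.32 to 0.92) with 8 pairs past the threshold.

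The members also moved together after dose was removed. In deviations from the dose means the median r of the 36 pairs was 0.76, and 33 passed. In deviations from the means of each dose within each run it was 0.81, and 23 passed with permutation within those cells. With biochip 23 also left out the median was 0.66 and 0 of 36 passed, the lowest adjusted p being 0.125. The cells hold only 2 or 3 biochips each, so few permutations exist. This limits how small these p-values can be, although the threshold could still have been passed. With so few biochips the count of 0 cannot show that the relation is absent. The relation differed in size between the runs: within run 1 (n = 7) the median r was 0.39 with 30 pairs positive and 0 past the threshold, and within run 2 (n = 8), which holds biochips 21 and 23, it was 0.85 with 35 past it, by exact permutation tests. The difference between the runs was not tested.

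**Figure D4:**
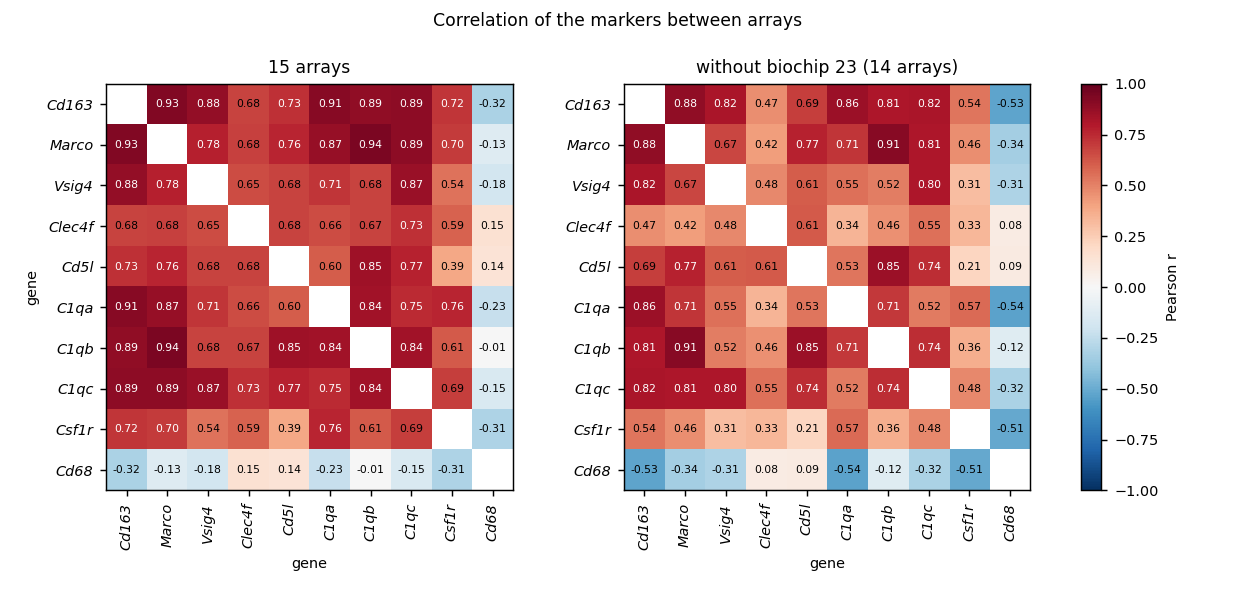
Pearson correlation (colour and number) of each pair of markers over 15 arrays (left) and over 14 arrays without biochip 23 (right), with genes on both axes. The 9 markers other than Cd68 form a red block with a median of 0.73 on the left and 0.59 on the right, and the Cd68 line is pale or blue in both.

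Cd68 was read apart from the other 9. Its values formed a low set of 3 DMSO biochips and a high set of 12, so its correlation with the other members was read within the 12, where the median r of the 9 pairs was 0.19 (range -0.32 to 0.57) and 0 of 9 passed. Without biochip 23 as well, over 11 arrays, the median was 0.26 (range -0.64 to 0.60) and 0 passed. Over the 12 arrays the other 36 pairs had a median r of 0.73 with 28 past the threshold, and over the 11 arrays a median of 0.43 with 4. Within run 1 alone (n = 7) the 9 Cd68 pairs had a median r of 0.36, 8 of them positive, close to the 0.39 of the other 36, and within run 2 alone (n = 8) they had -0.01 beside 0.85. The difference between the Cd68 pairs and the other pairs was not tested.

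In biochip 21 the other 9 members stood on average 1.04 above their 15-array means on the log2 scale, and Cd68 stood at -2.00 from its own. In biochip 23 the mean of the 9 was 1.46 and Cd68 was at 0.58. In the 100 µM biochip 27 the 9 members were at their lowest mean, -0.73, and Cd68 was at 0.67. DMSO biochips 20 and 22 had means of the 9 of 0.27 and -0.32, on either side of 0, with Cd68 at -2.10 and -1.76. Low Cd68 in DMSO biochips 21, 20 and 22 thus occurred with means of the other 9 markers that ranked 2, 4 and 12 of 15 from the highest.

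**Figure D5:**
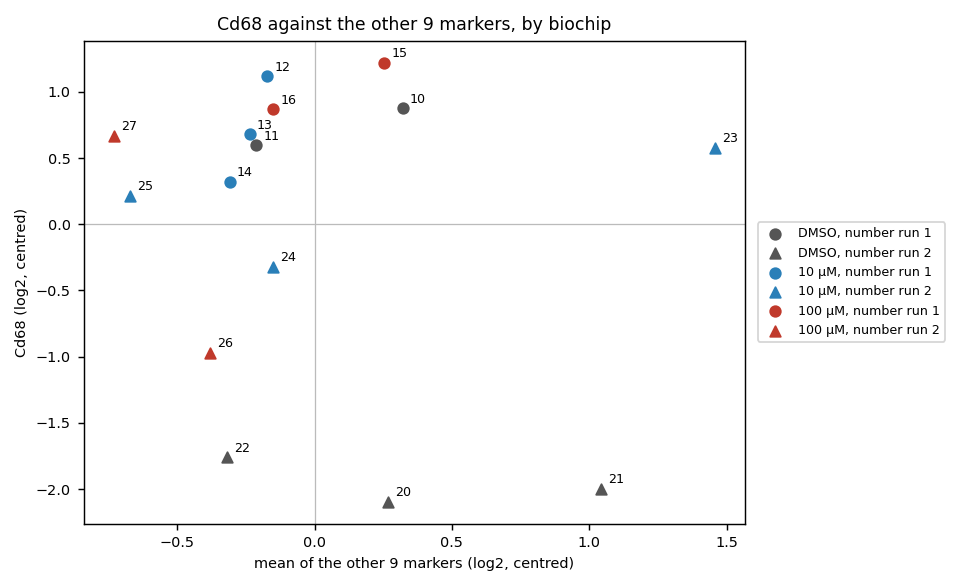
Cd68 (y axis, log2, centred on its 15-array mean) against the mean of the other 9 markers (x axis, log2, centred), 1 point per biochip, coloured by dose, with circles for number run 1 and triangles for run 2. Biochips 20, 21 and 22 lie at -2.10, -2.00 and -1.76 on the y axis and spread from -0.32 to 1.04 on the x axis.

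Without biochip 23, the 10 µM comparison of the markers had another shape. All 9 members other than Cd68 were then lower than DMSO in the fit, against 7 with biochip 23 included, and the members' median log2 difference was -0.48. Vsig4 differed by -1.22 (SE 0.61, limma adjusted p = 0.63), Cd163 by -0.99 (SE 0.42, adjusted p = 0.56) and C1qc by -0.84 (SE 0.36, adjusted p = 0.55). Marco differed by -0.58, Cd5l by -0.56, C1qa by -0.41 and C1qb by -0.36, whereas the dim Clec4f and Csf1r stayed at -0.05 and -0.01. Cd68 remained higher by 0.97 (SE 0.37, adjusted p = 0.487). In this fit 0 of 10 members and 0% of all genes were called. At an unadjusted p under 0.05 there were 6 of 10 members against 8.49% of all genes. Of these, Cd68 was higher and Cd163, Marco, C1qa, C1qb and C1qc were lower. The members move together between biochips, so such counts are not of independent genes and are not read against that share. Biochip 23 was the highest array in 8 of 10 members, so leaving it out was bound to lower their 10 µM means. With array quality weights, which count biochip 23 less, the median was -0.47 and 5 of 10 members were past an unadjusted 0.05, with 0 called. Leaving out DMSO biochip 21 instead moved the 10 µM value the other way, to a median of -0.04 with 1 member past an unadjusted 0.05. At 100 µM, 3 of 10 members (C1qa, Cd163 and Cd68) were past an unadjusted 0.05 without biochip 23, against 9.29% of all genes. There 0 of 10 members and 0% of all genes were called, and the members' median was -0.34. The 10 µM difference from DMSO was more positive in run 2 than in run 1 for 9 of 10 members with biochip 23, and for 7708 of 14506 genes. Without biochip 23 this held for 4 of 10 members. More positive includes negative differences that were nearer 0 in run 2, as for Cd163 with biochip 23 included (-0.48 in run 1 alone, -0.37 in run 2 alone). Vsig4 went the other way, from -0.12 to -0.86. For Cd68 the 10 µM difference was 1.93 larger in run 2 without biochip 23 (SE 0.55, limma adjusted p = 0.252).

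The genes most like the mean of the 9 members across the arrays were then listed. Ctss, a lysosomal protease of antigen-presenting cells, had the highest correlation of all non-members with their mean, r = 0.95 over 15 arrays and 0.91 without biochip 23. Its log2 value was 10.16 in biochip 23 and 8.86 in biochip 21, against 5.72 in biochip 27. Cd74, the invariant chain of MHC class II, followed with r = 0.91 and 0.84, then the costimulatory molecule Cd86 with 0.89, the growth factor Hbegf with 0.89 and the nucleoside transporter Slc28a2 with 0.89. Kti12, the complement receptor C5ar1, Cldn1, Tgm1 and Or5w15 completed the first 10, with r of 0.86 to 0.88. Without biochip 23 the first 10 were Ctss, Akap1, the macrophage receptor Adgre1 (0.85), Cd74, Lgals2, Eif4ebp2, Ech1, Cel, Cxcr4 and Hook3, so that 2 of 10 were shared. Several of these are not known as macrophage genes, and some genes of the macrophage list lay near or below 0, with r of 0.17 for Siglec1, -0.06 for Cd14 and -0.27 for Lyz2. No enrichment was tested. These correlations are descriptions, and share the arrays and their scaling with the members.

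None of those genes was among the 10 most like Cd68. Over 15 arrays these were the kinase Rps6ka5 (r = 0.92), the adaptor Gab2 (0.92), the autophagy protein Gabarapl2 (0.88), Aknad1 (0.88), Micos10, Cox17, Ppp1r10, Hprt1, Psmd8 and Ctbp2. Without biochip 23 they were Gabarapl2 (0.96), Ampd3 (0.95), Serinc2, Sat1, Ddx59, Rps6ka5, Uchl3, Hdgfl3, Gab2 and Kars1, with 3 of 10 shared. Gabarapl2 was 8.95, 9.16 and 9.01 in the DMSO biochips of run 2 and 9.25 to 10.10 in the other 12, so it shared the low level of those 3 biochips with a narrower gap.

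Gene lists of related function were set beside the members. Of 24 measured macrophage receptor and identity genes, 14 were highest in biochip 23, and their mean there was 0.65 above the 15-array mean, with 0.31 in biochip 21 and -0.30 to 0.15 in the other 13. The receptor adaptors Tyrobp and Fcer1g, which pass on signals of Fc and other immune receptors, reached 8.47 and 8.44 in biochip 23, against 5.43 to 7.91 and 4.40 to 7.21 elsewhere. The mannose receptor Mrc1 and Adgre1 were highest in biochip 21, at 8.40 and 5.61. In this list 0 of 24 genes were called in either dose comparison, with a median of -0.01 and 10 higher and 14 lower at 10 µM, and a median of -0.08 and 7 higher and 17 lower at 100 µM. Its gene of lowest p in both was Mrc1, at -0.90 (SE 0.42, limma adjusted p = 0.652) and -1.16 (SE 0.47, adjusted p = 0.698).

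Among 8 macrophage growth factor genes, Csf1, the ligand of Csf1r, had the lowest p, with -0.22 (SE 0.06, limma adjusted p = 0.375) at 10 µM and -0.21 (SE 0.07, adjusted p = 0.649) at 100 µM, and 0 of 8 were called. Of 8 measured complement partners of C1q, 7 were lower at 10 µM and 8 at 100 µM with 0 called, led by the protease C1s at -0.48 (SE 0.20, limma adjusted p = 0.606) and -0.66 (SE 0.22, adjusted p = 0.649). Of 26 lysosomal genes, among which Cd68 would belong by its place in the cell, 6 were higher and 20 lower at each dose, with 0 called and medians of -0.05 and -0.09. The lysosomal genes of lowest p were Gpnmb at 10 µM (-0.47, adjusted p = 0.621) and Npc2 at 100 µM (0.29, adjusted p = 0.698). Among 19 macrophage cytokines and chemokines, 0 were called, 11 were higher and 8 lower at 10 µM, 6 higher and 13 lower at 100 µM, and Arg1 had the lowest p at both (-0.63 and -0.70).

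Markers of some other cell types were also high in biochip 23. The mean of 11 sinusoidal endothelial genes, of which Mrc1 is also in the macrophage list, was 0.53 above the 15-array mean there and 0.32 in biochip 21, with -0.29 to 0.32 elsewhere, and 4 of the 11 were highest in biochip 23. The mean of 15 stellate cell and fibroblast genes was 0.22 in biochip 23 with 6 highest there, that of 18 hepatocyte genes 0.32 with 8 highest, and that of 11 neutrophil genes 0.22 with 4 highest. The mean was 0.89 for the 19 cytokines with 6 highest and 0.65 for 5 red blood cell genes with 0 highest. It was 0.07 for 12 lymphocyte genes with 1 highest and -0.06 for 7 cholangiocyte genes with 2 highest. The red blood cell, lymphocyte and cholangiocyte means lay within the range of other arrays, which reached 0.90, 0.09 and 0.30. Of all genes, 18.8% were highest in biochip 23. In biochip 21 the hepatocyte mean was -0.01 and the stellate mean -0.10. Over 15 arrays the endothelial mean correlated with the mean of the 9 members at r = 0.79, and at 0.63 without biochip 23. For the macrophage receptor and identity genes r was 0.95 and 0.91, and for the lysosomal genes 0.62 and 0.73. The other lists had r of -0.18 to 0.49, and of -0.26 to 0.42 without biochip 23. For the mean of all genes r was 0.01 and 0.64. Single genes could depart from the mean of their cell type. The hepatocyte gene Cps1 was highest in biochip 23 (8.73), with 8.64 in biochip 21. Its r with the mean of the 9 members was 0.79, and 0.75 without biochip 23. The hepatocyte genes Alb, Ttr, Apoa1, Serpina1 and Tf had r of -0.36 to 0.09, and of -0.69 to -0.21 without biochip 23. Summed log2 levels of the 11 endothelial genes were 53.6 to 58.7 in DMSO, 52.0 to 61.1 at 10 µM and 53.8 to 54.7 at 100 µM, and those of the 24 macrophage genes were 122.2 to 134.3, 119.7 to 142.5 and 120.1 to 127.7. The part of these cell types, and of array quality, in the marker levels was not tested.

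In the dose comparisons 0 genes of these cell type lists were called. At 10 µM, 4 of 18 hepatocyte genes were higher and 2 lower at an unadjusted p under 0.05, and 3 of 11 endothelial genes lower. The share of all genes was 7.65%. At 100 µM 3 hepatocyte genes and 1 endothelial gene were lower and 1 neutrophil gene higher, against 6.85% of all genes. The other cell type lists had none at either dose. Genes of a list can move together, and the lists were not tested as sets. The genes of lowest p at 10 µM were the endothelial adhesion molecule Pecam1 (-0.40, limma adjusted p = 0.447), the stellate cell gene Lum (0.12, adjusted p = 0.741), the lymphocyte gene Cd4 (-0.21, adjusted p = 0.775), the neutrophil gene Cxcr2 (0.22, adjusted p = 0.683), the cholangiocyte gene Tspan8 (-0.49, adjusted p = 0.804), the red cell gene Slc4a1 (-0.03, adjusted p = 0.978) and the hepatocyte gene Apoa2 (0.80, adjusted p = 0.375). At 100 µM they were Mrc1 again, Lum (0.11, adjusted p = 0.818), Cd79b (0.16, adjusted p = 0.777), Retnlg (0.28, adjusted p = 0.708), Cftr (0.08, adjusted p = 0.879), Epb42 (0.10, adjusted p = 0.818) and the asialoglycoprotein receptor Asgr1 (-0.65, adjusted p = 0.510).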

How the data were processed

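Expression was measured in 15 biochips on 1 Affymetrix array each. Log2 expression values per probe set were deposited by the authors in 1 table. RMA, which corrects background, quantile-normalizes and summarises probes, and Partek are named per the submitters' processing notes, with versions and settings not given in the sources used here. Groups came from the sample titles. RMA equalizes array distributions, so differences are relative to all probe sets. Arrays have no read depth, so their number limits the precision.

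Of 29214 probe sets, 15310 had 1 gene symbol in the platform annotation, and 15279 of those matched RefSeq genes of GRCr8 through their gene ID. The other 13904, which include 323 with several genes, had no single gene name and were left out. Where several probe sets shared a gene (527 genes) that of highest mean was kept, leaving 14506 genes. Columns of no sample numbered 0. Array pairs correlated at 0.952 to 0.991, and none were identical.

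Differences were fitted with limma 3.58.1 in R 4.3.3 (lmFit, eBayes; dose plus number run as a 2-level block) and adjusted by Benjamini-Hochberg over all genes. A separate fit held the interaction of dose and run. Correlations were tested by permutation, exact where n was under 10. Both methods were tested on simulated data. No set test was run. Alternatives were renewed quantile normalization, array weights, no run block, a filter on dim genes, all probe sets tested, no dose term for the run comparison, each run alone, and each array left out. After the data were seen, fits without the 3 DMSO biochips of run 2, correlations without those 3, without biochips 21 and 23, and deviations without biochip 23 were added. The members and gene lists were chosen with earlier results of these data known. Named genes were all members, the 10 genes most correlated with the mean of the 9 members other than Cd68 and the 10 most correlated with Cd68, each list's gene of lowest p, and Alb, Ttr and Apoa1. Others were named after their values were seen. Promoters came from RefSeq, where C1qc had no entry in the table used.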

Additional observations from a re-analysis of the deposited data

Results flagged for a closer look

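In the 10 µM group of 6 biochips, biochip 23 was far above the others for 3 members, with a gap to the next biochip that exceeded Dixon's 95% critical value of 0.625 of the whole range. These were Marco at 7.51 (next 5.69), Clec4f at 5.98 (next 5.40) and C1qc at 8.31 (next 6.28) on the log2 scale. Over the 30 sets of 1 member in 1 group, 3 such values were found, all in biochip 23. Chance gives such a value in about 1 in 20 single sets, but these 3 come from 1 array and the members move together, so they are not independent and are not read against that rate.

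For 2 members, each at 1 dose only, the flutamide biochips of the runs lay on opposite sides of the DMSO mean of their own run. In each run their values overlapped those of the single DMSO biochips. The share of all genes with such a pattern was not computed. Clec4f at 10 µM differed from DMSO by a mean of -0.18 in run 1 and 0.29 in run 2. Csf1r at 100 µM differed by 0.11 in run 1 and -0.21 in run 2. The fitted interaction was 0.47 for Clec4f (SE 0.37, limma adjusted p = 0.668) and -0.32 for Csf1r (SE 0.36, adjusted p = 0.973), and neither was called.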

How the results depend on the processing

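Of the values under the alternatives, 1118 kept their direction and side of the threshold, or moved by less than the spread between replicates, 86 moved beyond that or changed sign without a call, and 4 passed the threshold (Cd68 between the runs). No called value changed sign, but uncalled differences did: C1qc at 100 µM went from -0.36 to 0.27 in run 1 alone, C1qa at 10 µM from -0.09 to 0.18 in run 2 alone and Clec4f at 10 µM from 0.09 to -0.18 in run 1 alone. No member was called for either dose, between doses or for an interaction under any alternative run. Members called between the runs numbered 0 in the main fit, where 79 of 14506 genes were called, and 0 to 1 over fits leaving out 1 biochip. With array quality weights 1 member (Cd68) was called (limma adjusted p = 0.0436), beside 191 of 14506 genes. With dim genes left out 1 (Cd68) of 7 members tested was called (adjusted p = 0.0454), beside 90 of 7253 genes. The median r of the 36 pairs was 0.59 to 0.79 with 1 biochip left out, 0.39 within run 1, 0.42 without biochips 21 and 23 and 0.43 without biochip 23 and the 3 DMSO biochips of run 2. Pairs past the threshold numbered 16 to 35 with 1 biochip left out, 0 in run 1 and 8 without biochips 21 and 23. They numbered 4 without biochip 23 and those 3 DMSO biochips. In deviations from dose and run means they numbered 23, and 0 without biochip 23, where few permutations exist. The median r of the 9 Cd68 pairs over all 15 arrays, which mixes its low and high sets, was -0.15, with -0.32 to 0.11 when 1 biochip was left out. In deviations from dose and run means the median r of the Cd68 pairs was 0.15. With biochip 23 also left out it was -0.16, where the other 36 pairs had 0.66. It was -0.01 in deviations from dose means, 0.36 in run 1 and -0.01 in run 2. Without the 3 DMSO biochips of run 2 it was 0.19, and without biochip 23 as well it was 0.26. The cause of these changes was not tested. Other probe sets of the members were not tried, as each has 1. No paired analysis was possible because the biochip numbers are not shared between groups.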
